A study of Homo sapiens with 8 samples.

Results

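The D-type cyclins, their kinases and the inhibitors of these kinases were examined as 10 genes in lung cancer cell lines. They were *CCND1*, *CCND2*, *CCND3*, *CDK4*, *CDK6*, *CDKN1B*, *CDKN1C*, *CDKN2A*, *CDKN2B* and *CDKN2C*. The genes were chosen by their known roles and found on the arrays through the RefSeq accession of each probe. The 10 genes had 12 probes, of 22439 named genes and 31104 named probes. *CDKN1B* and *CDKN2A* had 2 probes each, and the single probe of *CCND1* was printed in 10 spots.

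Gene expression was measured on 8 Agilent arrays, each with a treated RNA labeled with Cy5 (red) and its control labeled with Cy3 (green). The lung squamous cell carcinoma (LUSQ) lines EBC-1 and SK-MES-1 received *miR-150-3p*, with 1 array per line. SBC-3, a small cell lung cancer line, received siDONSON-1, siDONSON-2 or siDONSON-3, which are separate siRNAs against *DONSON*, with 1 array each. The lung adenocarcinoma line A549 had *LOXL2* edited with CRISPR/Cas9, in 3 cultures labeled A549-GE1, A549-GE2 and A549-GE3. The controls were cells of the same line, called both mock and untransfected in the labels, and A549 cells without genome editing. The labels do not say whether the edited cultures were clones, or whether the controls of a line were a single RNA.

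D-type cyclins bind CDK4 and CDK6 in early G1 phase. These complexes phosphorylate the retinoblastoma protein, which releases E2F factors and allows S phase genes to be expressed. INK4 proteins (from *CDKN2A*, *CDKN2B* and *CDKN2C*) bind CDK4 and CDK6 directly, whereas CIP/KIP proteins (from *CDKN1B* and *CDKN1C*) mainly inhibit cyclin E-CDK2 complexes. Loss of INK4 inhibitors and gain of D-type cyclins are frequent in lung cancer.

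The value of a gene was the log2 ratio of red over green, so that a positive value means more RNA in the treated cells. Each array carries a software error for every log2 ratio, with a median of 0.21 per gene, and 95% limits were set at 1.96 times this error. *DONSON* had log2 ratios of -2.15, -1.79 and -2.11 in siDONSON-1 to siDONSON-3, and *LOXL2* had -2.49, -2.67 and -2.59 in A549-GE1 to A549-GE3. The arrays do not measure mature *miR-150-3p*. The lines carried the markers of their labels in part. The controls were well above background for 1 of 6 squamous markers in EBC-1 (*SOX2*, with *TP63* not above background), 3 of 6 in SK-MES-1, 3 of 6 neuroendocrine markers in SBC-3 and 2 of 5 adenocarcinoma markers in A549 (with *NKX2-1* not above background). Markers of other labels were also above background, with 3 of 5 adenocarcinoma markers in SK-MES-1, 2 of 5 in EBC-1, 2 of 6 squamous markers in SBC-3 and 2 to 4 of 5 leukocyte and fibroblast markers in every line. All 8 arrays were on 1 slide with no dye swap, and their small number limits how precise the values are. Limma tested whether the mean of a group departed from 0, with p-values adjusted by Benjamini-Hochberg over all genes, and genes with an adjusted p under 0.05 are said to have risen or fallen.

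**Figure D1:**
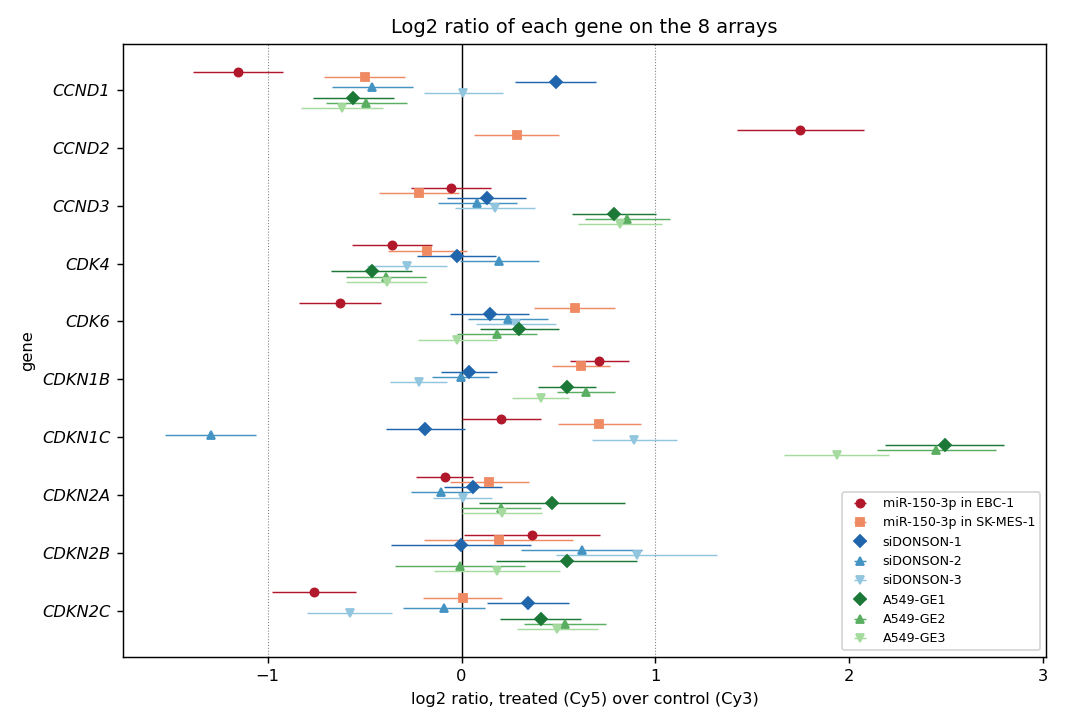
Log2 ratio of treated (Cy5) over control (Cy3) RNA for each of the 10 genes (rows) on the 8 arrays (points, by array). Bars are 1 software error, and dotted lines mark a log2 ratio of -1 and 1. The 3 A549 points of *CDKN1C* lie between 1.94 and 2.49, to the right of its other points, while its siDONSON points spread from -1.29 to 0.89.

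In the *LOXL2*-edited A549 cells, 4 of 9 measured genes changed, while 14.4% of all genes tested did so. *CDKN1C*, *CCND3* and *CDKN1B* rose and *CDK4* fell. After *miR-150-3p* transfection, *CDKN1B* alone of the 10 genes rose, while 5.38% of all genes changed. In the siDONSON cells none of 9 genes (0) passed the adjusted threshold in limma, 1 had an unadjusted p under 0.05 (*CDKN2B*, beside 26.1% of all genes), and 7.22% of all genes changed. The alternatives that were run also called 0 of these genes in siDONSON. On all 3 edited arrays, 5 of 9 genes lay outside the 95% limits on the same side (*CCND1* below, and *CCND3*, *CDKN1B*, *CDKN1C* and *CDKN2C* above), beside 13.4% of all genes, and after siDONSON 0 of 9 did, beside 4.06%. None (0 of 9) had a range above 1 over the edited arrays, beside 5.73% of all genes. The median log2 ratio of the measured genes was 0.29 in the edited cells, beside 0.02 over all genes. It was 0.00 after *miR-150-3p*, beside 0.04 over all genes, and -0.01 after siDONSON, beside 0.03. As whole cultures were measured, a change in the share of cells in a cell cycle phase and a change of RNA per cell cannot be told apart.

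**Figure D2:**
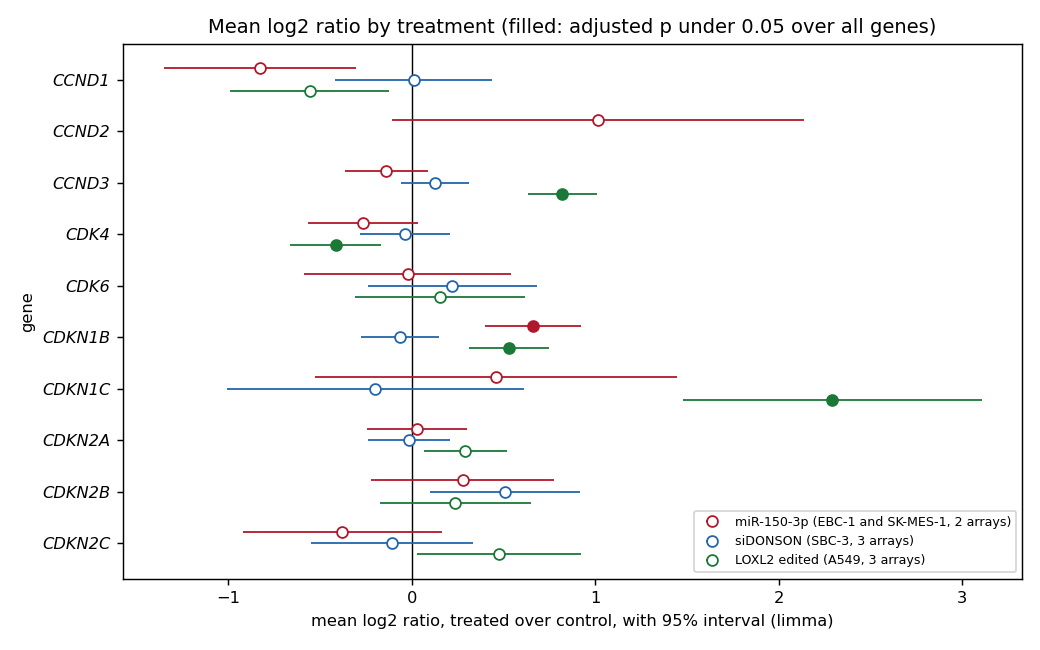
Mean log2 ratio of treated over control RNA with its 95% interval from limma (bars), for each gene (rows) and treatment (colors). Filled points passed the adjusted threshold over all genes; they are *CDKN1B* after *miR-150-3p* at 0.66 and *CCND3*, *CDK4*, *CDKN1B* and *CDKN1C* in the edited A549 cells at 0.82, -0.41, 0.53 and 2.29.

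Of the D-type cyclins, *CCND1* encodes cyclin D1, the form most often amplified in solid tumors. The log2 ratio of *CCND1* was -1.15 in EBC-1 cells and -0.50 in SK-MES-1 cells with *miR-150-3p*. Both values lay outside the 95% limits of the software error. The mean of -0.83 ± 0.23 (SE, n = 2) did not pass the threshold (limma adjusted p = 0.0701). In the edited A549 cells the values were -0.56, -0.49 and -0.62. They were all below 0 and within 0.12 of one another, and their mean of -0.56 ± 0.19 (SE, n = 3) did not pass the threshold either (limma adjusted p = 0.0859). It did with the spread of these arrays alone (adjusted p = 0.00919). The siDONSON arrays went different ways, with 0.49, -0.46 and 0.01 for siDONSON-1, siDONSON-2 and siDONSON-3.

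The 10 spots of *CCND1* show how far a log2 ratio varies within an array. Their SD was 0.018 to 0.086 on the 8 arrays. In siDONSON-1 the spots lay between 0.40 and 0.62, and in siDONSON-2 between -0.54 and -0.39. The spots of these arrays did not overlap, but spots show only the technical spread within an array and not that between cultures. A single array stands behind each siRNA, and differences between the siRNAs were not tested.

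**Figure D3:**
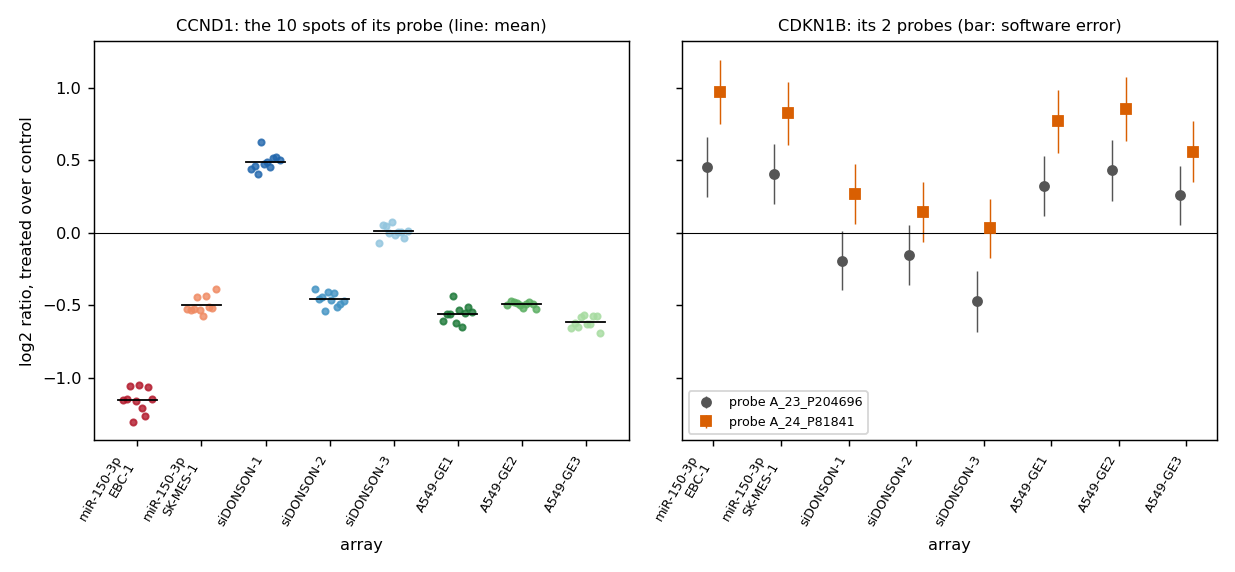
Left, log2 ratio of the 10 spots of the *CCND1* probe on each of the 8 arrays, with the mean as a line. Right, log2 ratio of the 2 *CDKN1B* probes on each array with 1 software error as bar. Spots of *CCND1* lie close together within each array and the arrays of siDONSON differ; probe A_24_P81841 lies above probe A_23_P204696 on all 8 arrays.

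*CCND2*, which encodes cyclin D2, was measured only in the squamous lines. In SBC-3 and A549, its probe was not well above background in either channel. In EBC-1 the log2 ratio was 1.75, but the control channel was not well above background. With the software's background subtraction the treated RNA was at least 3.14-fold higher. In SK-MES-1, where both channels were above background, the log2 ratio was 0.29. The mean of 1.02 ± 0.40 (SE, n = 2) did not pass the threshold (limma adjusted p = 0.194). With the normexp background correction, which shrinks dim signals, the mean was 0.20 and the value in EBC-1 was 0.30, so that the bound does not hold there.

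*CCND3* encodes cyclin D3. With *LOXL2* edited, its log2 ratio was 0.79, 0.86 and 0.82 in A549-GE1, A549-GE2 and A549-GE3. The mean of 0.82 ± 0.08 (SE, n = 3) was a 1.77-fold rise (limma adjusted p = 0.00179). Its adjusted p stayed between 0.000186 and 0.0272 in every alternative run. The other groups had lower values, and how many of all genes were set apart in this way was not counted. After siDONSON, *CCND3* had 0.13, 0.08 and 0.17, all within the 95% limits of the software error, and after *miR-150-3p* it had -0.05 in EBC-1 cells and -0.22 in SK-MES-1 cells.

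*CDK4* and *CDK6* encode the kinases. *CDK4* had log2 ratios of -0.46, -0.39 and -0.39 in the edited A549 cells. These values were all below 0, and only that of A549-GE1 lay outside the 95% limits of the software error. The mean of -0.41 ± 0.11 (SE, n = 3) was a fall to 0.751-fold (limma adjusted p = 0.0405), while 6.77% of all genes fell. Without any 1 of the 3 arrays the call was lost (adjusted p 0.161 to 0.196). After *miR-150-3p*, *CDK4* had -0.36 in EBC-1 cells and -0.18 in SK-MES-1 cells, and the mean of -0.27 ± 0.13 (SE, n = 2) did not pass the threshold (limma adjusted p = 0.209). The siDONSON arrays had -0.02, 0.20 and -0.28.

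The promoter of *CDK4* is shown because it held the E-box letters CACGTG most often among the listed promoters of these genes. RefSeq promoters on GRCh38.p14, each of 300 bases around a transcription start, were listed for 7 of the 10 genes, with 13 promoters in all. The *CDK4* promoter holds CACGTG (a palindrome, so that both strands read the same) 3 times. These letters are in 7.26% of 35116 promoters of the same length, and 0.094% hold them 3 or more times. The *CDK4* windows with the motif in capitals, on the minus strand of chr12:57752499-57752528 and chr12:57752394-57752423, span bases -218 to -189 and -113 to -84 from the transcription start.
CDK4 distal window: gtCACGTGtgatagcaacagatCACGTGgc
CDK4 proximal window: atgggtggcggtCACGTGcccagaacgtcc

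A match of letters is a description, and binding was not measured here. Of the other promoters, 2 of *CDKN2C* and 1 of *CDK6* hold CACGTG once. A relation of the motif to the log2 ratios was not tested. Other motifs were searched on both strands, each on its own and whether or not it overlapped another. GGGCGG (the GC box, in 45.0% of all promoters) was found in promoters of each of the 7 genes, TGTTTAC (forkhead, 3.42%) in 1 promoter of *CCND3*, and TTTNNCGC (E2F, 6.89%) in none of the 13.

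*CDK6* went opposite ways in the squamous lines. With *miR-150-3p* the log2 ratio was -0.63 in EBC-1 cells and 0.58 in SK-MES-1 cells. Both values lay outside the 95% limits of the software error, which held with opposite signs for 0.815% of all genes. The mean of -0.02 ± 0.24 (SE, n = 2) therefore stands for neither line. The difference between the lines was not tested, since each had 1 array. *CDK6* had 0.14, 0.24 and 0.28 after siDONSON and 0.30, 0.18 and -0.02 in the edited A549 cells, with neither mean past the threshold (limma adjusted p = 0.521 and 0.653).

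Of the CIP/KIP inhibitors, *CDKN1B* encodes p27, which holds cyclin E-CDK2 inactive in resting cells. After *miR-150-3p* the log2 ratio of *CDKN1B* was 0.71 in EBC-1 cells and 0.61 in SK-MES-1 cells. The mean of 0.66 ± 0.11 (SE, n = 2) was a 1.58-fold rise (limma adjusted p = 0.0295), while 2.47% of all genes rose. The call was lost in 4 of 10 alternatives, which were leaving out EBC-1 (adjusted p = 0.198), the spread of the group alone (0.356), the brightest probe (0.0613) and no filter on dim probes (0.0541). *CDKN1B* had 0.54, 0.64 and 0.41 in the edited A549 cells. The mean of 0.53 ± 0.09 (SE, n = 3) was a 1.45-fold rise (limma adjusted p = 0.0115), while 7.58% of all genes rose. Without any 1 of these arrays the adjusted p was 0.0557 to 0.0999, and with the brightest probe it was 0.0501. The siDONSON values of *CDKN1B*, at 0.04, -0.01 and -0.22, were below those of the other treatments. The share of all genes set apart in this way was not counted.

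The *CDKN1B* probes differed from each other in size. Probe A_24_P81841 had log2 ratios of 0.97 in EBC-1 cells and 0.82 in SK-MES-1 cells, and probe A_23_P204696 had 0.45 and 0.41. In the edited A549 cells the first had 0.77, 0.85 and 0.56, and the second 0.32, 0.43 and 0.26. Both probes were thus above 0 on all 5 arrays of these treatments. After siDONSON the probes had opposite signs, with 0.27, 0.14 and 0.03 for the first and -0.19, -0.15 and -0.47 for the second. Both probes carry the same RefSeq accession, and their own sequences were not used here. With no dye swap, a dye offset of a probe could not be removed, so the point of no change is uncertain for each probe. The part of such an offset in the *CDKN1B* means was not tested. With the brightest probe, A_23_P204696, the mean was 0.43 after *miR-150-3p* and 0.34 in the edited A549 cells.

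*CDKN1C* encodes p57, an imprinted inhibitor active in differentiating tissues. It had the largest change of the 10 genes in limma. Its log2 ratio was 2.49, 2.45 and 1.94 in the edited A549 cells, and the mean of 2.29 ± 0.35 (SE, n = 3) was a 4.90-fold rise (limma adjusted p = 0.0073). All 3 values lay above every value of the other 5 arrays, and the share of all genes for which this held was not counted. The control level of *CDKN1C* in A549 was low but well above background on all 3 arrays. The size depended on the background correction, as the mean log2 ratio was 1.24 with normexp and loess. Without A549-GE2 the adjusted p was 0.0537.

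In the other treatments *CDKN1C* did not pass the threshold. After siDONSON it had -0.19, -1.29 and 0.89, the widest range over these arrays of the 9 measured genes (2.19), while 12.8% of all genes had a range above 1. Only siDONSON-2 and siDONSON-3 lay outside the 95% limits of the software error, and on opposite sides. The mean of -0.20 ± 0.35 (SE, n = 3) changed sign without siDONSON-2. With *miR-150-3p*, *CDKN1C* had 0.21 in EBC-1 cells and 0.71 in SK-MES-1 cells (mean 0.46 ± 0.43, SE, n = 2, limma adjusted p = 0.504).

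None of the INK4 inhibitor genes passed the threshold in any treatment (0 of 3 genes in limma). At an unadjusted p under 0.05 there were 0 after *miR-150-3p*, 1 after siDONSON (*CDKN2B*) and 2 in the edited A549 cells (*CDKN2A* and *CDKN2C*), beside 30%, 26.1% and 31% of all genes. *CDKN2C*, which encodes p18, had 0.41, 0.53 and 0.49 in the edited A549 cells. These values lay outside the 95% limits of the software error on each array, and their mean of 0.48 ± 0.19 (SE, n = 3) did not pass the threshold (limma adjusted p = 0.137). With normexp and loess the adjusted p was 0.036. In EBC-1 with *miR-150-3p*, *CDKN2C* had -0.76, whereas it had 0.01 in SK-MES-1. After siDONSON it had 0.34, -0.09 and -0.58.

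*CDKN2A* encodes p16 and, from another reading frame, ARF. Its probe for NM_058197 was above background on all arrays. Its probe for NM_000077 was above background in both channels in EBC-1 and SBC-3, in the treated channel alone in A549-GE1, and in neither channel on the other 3 arrays. The log2 ratios of the gene were -0.09 in EBC-1, 0.14 in SK-MES-1, 0.06, -0.11 and 0.01 after siDONSON, and 0.47, 0.20 and 0.21 in the edited A549 cells. The value of A549-GE1 averages both probes, and on the probe for NM_058197 alone it was 0.32. The mean in A549 was 0.29 ± 0.10 (SE, n = 3, limma adjusted p = 0.0827). With normexp and loess it was 0.17 with an adjusted p of 0.0213.

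*CDKN2B*, which encodes p15, lay close to background in every line. Its log2 ratios were 0.36 in EBC-1, 0.19 in SK-MES-1, 0.00, 0.62 and 0.90 after siDONSON, and 0.54, -0.01 and 0.18 in the edited A549 cells. Its siDONSON mean was 0.51 ± 0.18 (SE, n = 3, limma adjusted p = 0.122). With normexp and loess the siDONSON mean of *CDKN2B* was 0.07.

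In the squamous lines, 2 of the 10 genes were past 2-fold in EBC-1 (*CCND1* below and *CCND2* above), where 12.0% of all genes were. In SK-MES-1 none (0 of 10) was past 2-fold, where 3.83% of all genes were. Outside the 95% limits of the software error were 5 of 10 genes in EBC-1, beside 41.1% of all genes, and 4 of 10 in SK-MES-1, beside 18.5%. *CCND1* lay below and *CDKN1B* above these limits in both lines. *CDK6*, *CDKN2A* and *CDKN2C* had opposite signs in the lines, which 31.9% of all genes had.

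The treatments were compared within the same limma model, over genes measured in both groups. For *miR-150-3p* minus siDONSON, 1 of 9 genes differed (2.69% of all genes), for *miR-150-3p* minus *LOXL2* editing 1 of 9 (3.6%), and for siDONSON minus *LOXL2* editing 3 of 9 (7.29%). *CDKN1B* was 0.73 ± 0.14 (SE) higher on the log2 scale with *miR-150-3p* than with siDONSON (adjusted p = 0.0439), and its difference of -0.59 ± 0.13 between siDONSON and *LOXL2* editing also passed (adjusted p = 0.0354). Between *miR-150-3p* and *LOXL2* editing, *CDKN1B* differed by 0.13 ± 0.15, which did not pass (adjusted p = 0.639). *CCND3* separated *LOXL2* editing from both other treatments, with a difference of -0.96 ± 0.13 for *miR-150-3p* (adjusted p = 0.0121) and -0.69 ± 0.11 for siDONSON (adjusted p = 0.0147). *CDKN1C* differed by -2.49 ± 0.49 between siDONSON and *LOXL2* editing (adjusted p = 0.0252), and its difference of -1.83 ± 0.55 between *miR-150-3p* and *LOXL2* editing did not pass (adjusted p = 0.107). The *CCND3* differences kept an adjusted p of 0.002 to 0.0249 and 0.00264 to 0.0313 over the alternatives run, whereas those of *CDKN1B* reached 0.105 and 0.0688 and that of *CDKN1C* reached 0.0869 under one of them. Each treatment was applied to other cell lines, so that treatment and line cannot be told apart.

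The control channel gave the level of each gene in the controls of the 4 lines. The same signal is the denominator of the log2 ratio, so that level and ratio are not independent. Green signals were scaled between arrays to the same distribution and are given as log2 levels. They were compared only within a probe, as the mean over 3 arrays in SBC-3 and A549 and as a single array in EBC-1 and SK-MES-1. The control arrays of a line differed little, with a median SD of 0.064 in SBC-3 and 0.049 in A549 over probes, which is a technical spread if the control was a single RNA. Neighbors in an order are said to differ when they were further apart than the 95% limits of the software error, about 0.40 for a bright probe. This limit holds technical error alone, and as EBC-1 and SK-MES-1 had 1 control array each, the variation between cultures of a line was not measured. Of the 9 probes above background on all arrays, 7 had a range above 1 over the lines, which 67.7% of all such probes had (9821 of 14510). With normexp and loess, 7 of 9 had such a range too, beside 5738 of 14510 probes.

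**Figure D4:**
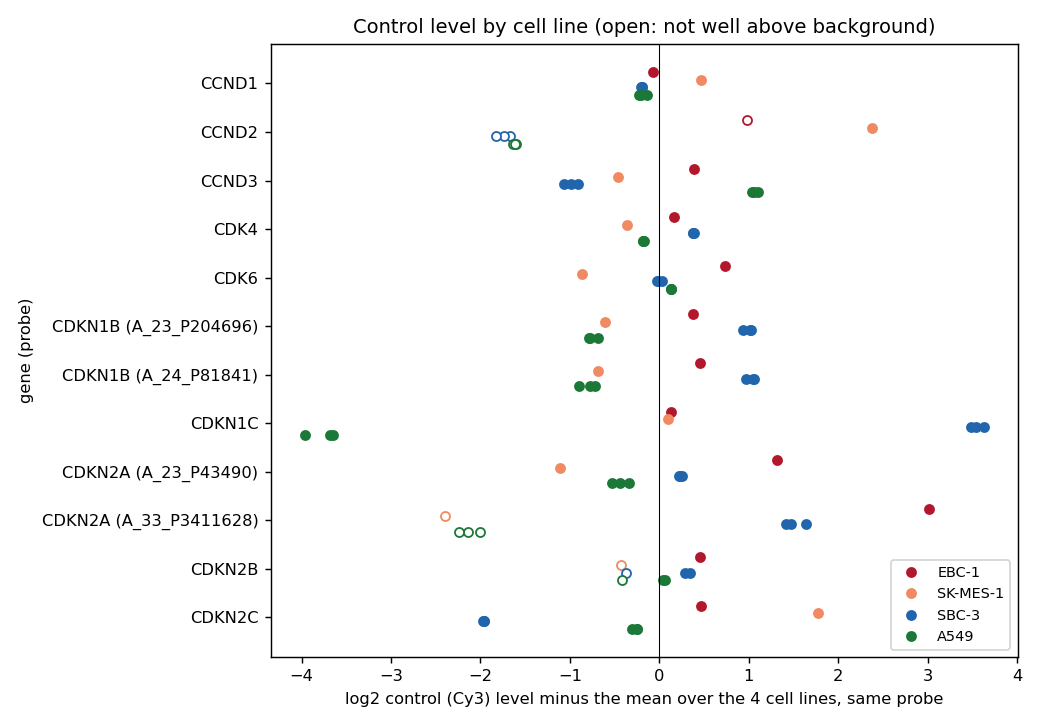
Control (Cy3) level of each of the 12 probes (rows) on the 8 arrays (points, by cell line), as the log2 level minus the mean of the 4 lines for the same probe. Open points were not well above background; *CDKN1C* spans the widest range among probes above background on all arrays, from 6.97 in A549 to 14.28 in SBC-3.

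*CDKN1C* varied most. Its log2 level was 14.28 in SBC-3 (14.22 to 14.36), 10.86 in EBC-1, 10.83 in SK-MES-1 and 6.97 in A549 (6.77 to 7.09). SBC-3 exceeded EBC-1 by 10.7-fold, EBC-1 and SK-MES-1 did not differ beyond the error, and SK-MES-1 exceeded A549 by 14.5-fold. The levels of *CDKN1C* in SBC-3 and A549 thus lay 159-fold apart. With normexp and loess the range fell from 7.31 to 5.59 on the log2 scale, and EBC-1 and SK-MES-1 changed places.

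The other CIP/KIP gene had the same line at the top. Both *CDKN1B* probes gave the order SBC-3, EBC-1, SK-MES-1 and A549. The levels were 11.17, 10.55, 9.57 and 9.43 for probe A_23_P204696 and 10.61, 10.04, 8.91 and 8.79 for probe A_24_P81841. SBC-3 exceeded A549 by 3.33-fold and 3.53-fold, and SK-MES-1 and A549 did not differ beyond the error. A549, in which both CIP/KIP genes rose with *LOXL2* editing, was last in the order of controls for each of them. As the control signal also enters the ratio, a link between level and rise was not tested.

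Among the INK4 genes, *CDKN2C* had a log2 level of 12.10 in SK-MES-1, 10.79 in EBC-1, 10.05 in A549 and 8.36 in SBC-3. All neighbors differed beyond the error, and the highest exceeded the lowest by 13.3-fold. For *CDKN2A*, the probe for NM_058197 had 11.27 in EBC-1, 10.19 in SBC-3, 9.52 in A549 and 8.85 in SK-MES-1, again with all neighbors apart. The probe for NM_000077 had 8.76 in EBC-1 and 7.26 in SBC-3 and was not well above background in A549 and SK-MES-1. On this probe and with the software's background subtraction, EBC-1 was at least 16.0-fold above SK-MES-1 and at least 14.8-fold above A549. With normexp and loess its range over the lines fell from 5.40 to 1.31 on the log2 scale, so that these bounds do not hold there. Both *CDKN2A* probes therefore had EBC-1 first and SBC-3 second. In the controls of A549 and SK-MES-1 they differed, as only the probe for NM_058197 was above background. *CDKN2B* had levels between 4.71 and 5.59, with no neighbors apart beyond the error.

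Of the D-type cyclins, *CCND3* varied most among those above background in all lines. Its log2 level was 11.88 in A549, 11.20 in EBC-1, 10.35 in SK-MES-1 and 9.83 in SBC-3. All neighbors lay further apart than the error, and A549 exceeded SBC-3 by 4.15-fold. *CCND3* therefore rose with *LOXL2* editing in the line whose control already had its highest level. *CCND1* was 11.59 in SK-MES-1, 11.05 in EBC-1, 10.93 in A549 and 10.92 in SBC-3, and only SK-MES-1 stood apart from its neighbor. *CCND2* was above background in the control of SK-MES-1 alone, at 6.70. With the software's background subtraction this was at least 2.47-fold above EBC-1, 2.84-fold above SBC-3 and 3.55-fold above A549. With normexp and loess the range of *CCND2* over the lines fell from 4.12 to 0.55 on the log2 scale, so that these bounds do not hold there.

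The kinases varied less than most of the inhibitors. *CDK4* was 14.22 in SBC-3, 14.01 in EBC-1, 13.67 in A549 and 13.48 in SK-MES-1, and no neighbors differed beyond the error. The order of SBC-3 and EBC-1 turned when arrays were scaled to their 75th percentile. *CDK6* was 12.64 in EBC-1, 12.04 in A549, 11.90 in SBC-3 and 11.05 in SK-MES-1. EBC-1 exceeded SK-MES-1 by 3.02-fold, and A549 and SBC-3 did not differ beyond the error. The lines with the highest and the lowest *CDK6* level were those in which its log2 ratio had opposite signs. Level and ratio share the control signal of the same single arrays, so a link between them was not tested.

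A list of 26 other G1/S genes, among them cyclin E, CDK2, E2F and RB family genes, was set beside these results. After *miR-150-3p*, 2 of 26 fell and 0 rose, beside 5.38% of all genes changed, with a median log2 ratio of -0.29 beside 0.04 over all genes. *CCNE1* (cyclin E1) fell by 1.34 ± 0.21 (SE, limma adjusted p = 0.0261) and *CDK2*, its kinase, fell by 0.92 ± 0.17 (adjusted p = 0.0329). Both calls were lost under some alternatives, with adjusted p up to 0.307 for *CCNE1* and 0.347 for *CDK2*. In EBC-1, 10 of the 26 genes were below a log2 ratio of -1, beside 6.04% of all genes, and in SK-MES-1 it was 1 of 26, beside 1.27%.

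After siDONSON, 1 of the 26 genes rose and 0 fell, a share no higher than the 7.22% of all genes changed, with a median of -0.05 beside 0.03. The gene that rose was *CDKN1A*, the p21 inhibitor of the CIP/KIP family and a p53 target, at 0.85 ± 0.17 (limma adjusted p = 0.0305, up to 0.14 under the alternatives). In the edited A549 cells 2 rose and 2 fell, a share near the 14.4% of all genes changed, with a median of -0.06 beside 0.02. *CDKN1A* rose by 0.94 ± 0.17 (adjusted p = 0.0135), beside the other CIP/KIP genes *CDKN1B* and *CDKN1C*. *E2F5*, a repressive E2F factor, rose by 0.41 ± 0.10 (adjusted p = 0.0351). *CDK2* fell by 0.94 ± 0.14 (adjusted p = 0.0067) and *MYC* fell by 0.63 ± 0.12 (adjusted p = 0.0168). Each of these calls was lost without 1 or more of the arrays, with adjusted p up to 0.0796 for *CDKN1A*, 0.178 for *E2F5*, 0.0529 for *CDK2* and 0.101 for *MYC*.

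**Figure D5:**
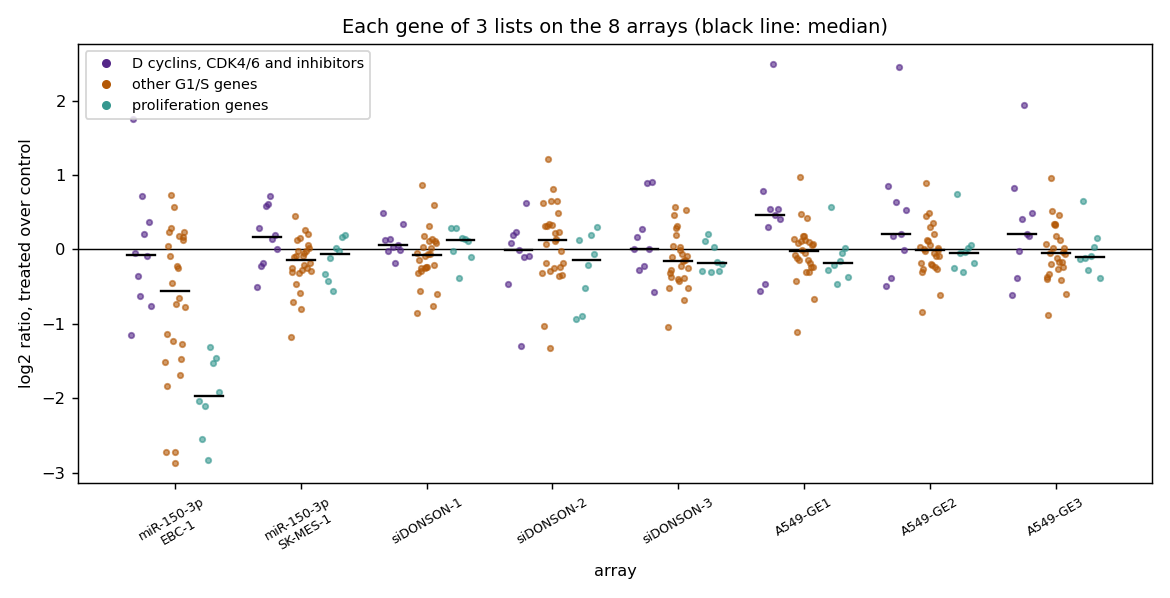
Log2 ratio of treated over control RNA of every gene with a value (points) on the 8 arrays, for the 10 genes, the 26 other G1/S genes and the 8 proliferation genes, with the median of each list as a black line. The proliferation genes are all below -1 in EBC-1 with *miR-150-3p* and have a median of -0.06 in SK-MES-1.

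Genes that mark proliferation were lower in EBC-1 cells with *miR-150-3p*. All 8 genes of a proliferation list (*MKI67*, *PCNA*, *TOP2A*, *CDK1*, *CCNB1*, *MCM2*, *MCM5* and *RRM2*) were below a log2 ratio of -1 in EBC-1, with a median of -1.97, while none (0 of 8) was in SK-MES-1, with a median of -0.06. Over both lines 0 of 8 passed the adjusted threshold in limma and 6 had an unadjusted p under 0.05, beside 5.38% and 30% of all genes, with means from -1.69 for *CDK1* to -0.65 for *CCNB1*. Beside these medians, the log2 ratio of *CDKN1B* was 0.71 in EBC-1, while it was 0.61 in SK-MES-1. In siDONSON the proliferation genes had a median of -0.05, with means from -0.40 for *CDK1* to 0.07 for *PCNA*, and in the edited A549 cells a median of -0.11, with means from -0.35 for *CDK1* to 0.66 for *PCNA*. In both groups 0 of 8 passed the adjusted threshold and 0 had an unadjusted p under 0.05. The part of proliferation in the values of the cyclin and inhibitor genes was not tested.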

How the data were processed

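The authors deposited Feature Extraction 12.1.1.1 output for each array, with intensity values of both channels after background subtraction and dye normalization, and log10 ratios. A deposited table of the whole series held the same log10 ratios, each column with a median of 0 and a largest difference of 0. For gene names, 24782 of 50096 accessions matched a symbol of the RefSeq table. The array files name build hg19, and sequences came from RefSeq on GRCh38.p14.

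Log2 ratios were computed from the processed intensities. Control spots and 81 to 133 marked spots per array were left out, and 0 spots were saturated. A probe counted where either channel or both were well above background (27229 to 31785 probes per array), and a gene's value was the mean over its counted probes. The 95% limits were 1.96 times the software's error. Limma 3.58.1 (R 4.3.3) fitted 3 groups to all 8 arrays, on genes with a value on all arrays of the groups compared, with Benjamini-Hochberg adjustment at 0.05. A gene with a value on all 8 arrays had 5 residual degrees of freedom, and others, such as *CCND2*, had fewer. EBC-1 and SK-MES-1 counted as 2 samples of *miR-150-3p*. Nothing says that arrays of a group came from separate cultures, so p-values measure a spread between arrays that may be technical. This spread is pooled over the groups, and each SE comes from it rather than from a group's own arrays. For *CDK6* after *miR-150-3p*, for example, the SD of its arrays was 0.86 and the SE was 0.24. Pooling can also widen an SE, as for *CCND1* in the edited A549 cells, where the SD was 0.062 and the SE 0.19. Gene-specific dye bias could not be removed. If the controls of a line were a single RNA, the test leaves out the control's own spread. For a channel not well above background, folds were bounded with the higher of its own signal and the lowest signal well above background on that array. These bounds apply to the software's background subtraction only. Green levels were scaled with limma's Aquantile.

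Alternatives were normexp (offset 50, on median signals, since mean signals were not in the files) with loess, no filter on dim probes, both channels above background, marked spots kept, the brightest probe, median centring, the value table, the spread of the group alone, each array left out, and the squamous lines apart. The fit was tested on simulated data. The named genes were all 10 genes, called genes of the G1/S list, the extremes of the proliferation list, the targeted genes, and the 3 genes most alike to each called gene. The genes and lists were chosen with earlier results of these data known.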

Additional observations from a re-analysis of the deposited data

Results flagged for a closer look

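Differences between treatments in the log2 ratio passed the adjusted threshold in 5 cases. *CDKN1B* differed by 0.73 for *miR-150-3p* minus siDONSON and by -0.59 for siDONSON minus *LOXL2* editing. *CCND3* differed by -0.96 for *miR-150-3p* minus *LOXL2* editing and by -0.69 for siDONSON minus *LOXL2* editing. *CDKN1C* differed by -2.49 for siDONSON minus *LOXL2* editing. With no filter on dim probes the number of such differences was 3. The treatments were applied to other lines, and treatment and line cannot be told apart.

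With *miR-150-3p*, 3 genes had opposite signs in EBC-1 and SK-MES-1. The difference of EBC-1 minus SK-MES-1 was -1.21 for *CDK6*, -0.23 for *CDKN2A* and -0.77 for *CDKN2C*. These differences were not tested, as each line had 1 array. *CDK6* alone of the 3 lay outside the 95% limits of the software error in both lines.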

How the results depend on the processing

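Of 294 values of the 10 genes under alternatives, 261 kept their direction and their side of the threshold, 14 changed sign, 12 lost and 7 gained the threshold. The 261 include the value table, which held the same log10 ratios as the arrays and so could hardly differ. They also include means that were not called and stayed so. The call of *CCND3* in the edited A549 cells held under all alternatives run. In the *miR-150-3p* group, 765 genes were called, beside 1536 with normexp and loess, 198 with no filter on dim probes, 0 with the group's own spread (1944 at an unadjusted p under 0.05), and 1 to 2972 with an array left out (1 without EBC-1, 2972 without SK-MES-1; the squamous lines fitted apart gave the same 2972 for EBC-1 and 1 for SK-MES-1). A lone array is assumed there to vary like the other groups. A gene without values in those groups, such as *CCND2*, is assumed to vary like other genes. Of the 10 genes, 1 (*CDKN1B*) was called, beside 0 with no filter, with the brightest probe and with the group's own spread. Its call was also lost without EBC-1. Calls of the 10 genes in EBC-1 or SK-MES-1 alone are not counted, as 1 array gives no spread of its own. In siDONSON 1043 genes were called, beside 2897 with no filter, 26 with the group's own spread, and 97 (without siDONSON-3) to 1115 with an array left out. In the edited A549 cells 2229 genes were called, beside 5375 with no filter, 5873 with the group's own spread and 470 to 588 with an array left out. Of the 9 genes measured there 4 were called, beside 1 to 2 with an array left out (1 without A549-GE2). The fits with an array left out called from 470 of 15695 genes tested (without A549-GE2) to 588 of 15722 (without A549-GE1). In EBC-1 2 genes were past 2-fold, beside 0 with normexp and 1 with both channels above background. There were 5 differences between treatments, beside 3 with no filter. Median centring moved the calls in siDONSON from 464 lower and 579 higher to 533 and 443.

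Means near 0 changed sign. With 1 array left out, the means ran from -0.63 to 0.58 for *CDK6*, -0.76 to 0.0053 for *CDKN2C* and -0.087 to 0.14 for *CDKN2A* after *miR-150-3p*, and from -0.23 to 0.25 for *CCND1*, -0.15 to 0.085 for *CDK4*, -0.11 to 0.016 for *CDKN1B*, -0.74 to 0.35 for *CDKN1C*, -0.050 to 0.033 for *CDKN2A* and -0.33 to 0.13 for *CDKN2C* after siDONSON. *CDKN2A* was -0.027 with no filter and -0.0068 with median centring after *miR-150-3p*, and 0.025 with normexp or the brightest probe after siDONSON, and *CCND1* was -0.027 with median centring after siDONSON. The cause was not tested. No paired analysis was possible because each ratio already sets a treated RNA against its own control on 1 array, and the numbers of siDONSON and A549-GE name different siRNAs and cultures. A slide block could not be fitted, as all arrays were on 1 slide. *CCND2*, *CDKN2B* and the NM_000077 probe of *CDKN2A* lay near background, which limits their values.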

Other observations

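The genes whose log2 ratios were most alike to those of a called gene over the 8 arrays were found among 12862 genes by Pearson's r, as a description. For *CDKN1B* they were *EMILIN1* (r = 0.982), *ROGDI* (0.981) and *MAN1A2* (0.978). For *CDKN1C* they were *CWC15* (0.989), *SFRP1* (0.981) and *DZIP3* (0.978). For *CCND3* they were *ZNF329* (0.989), *TGM2* (0.984) and *PIDD1* (0.976), and for *CDK4* they were *SNORA26* (0.983), *MED30* (0.981) and *DERA* (0.980). The arrays share cell lines and treatments, and the highest of so many genes is high by choice.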
